A study of Mus musculus with 24 samples.

Results

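A set of 9 genes of early granulocyte development was followed in 2 kinds of myeloid-derived suppressor cell (MDSC) from mouse spleen: Mpo, Elane, Prtn3, Ctsg, Ms4a3, Prom1, Cd34, Cst7 and Ctsc. They were taken by gene symbol from the deposited table, which lists 23479 genes, and all 9 were found there. The mice bore B16 melanoma, a transplantable mouse tumour, of more than 25 mm2, and their spleens gave a monocytic kind (M-MDSC) and a polymorphonuclear kind (PMN-MDSC), separated by flow cytometry to more than 99% purity. Mice of strain B6.129S2-Il6tm1Kopf/J, with a targeted germline allele of the interleukin-6 gene, were labelled IL-6KO (here "KO"), and C57BL/6 mice were labelled WT. Lymphodepleted mice (LD) received cyclophosphamide and fludarabine, cytotoxic drugs that deplete lymphocytes and dividing marrow cells, and untreated mice (UT) did not; spleens were taken 7 days after treatment. All 8 groups therefore come from tumour-bearing animals, and there was no tumour-free group.

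The groups were KO LD, KO UT, WT LD and WT UT in M-MDSCs and the same 4 in PMN-MDSCs, each of 3 libraries named by genotype label, treatment, cell type and replicate (KO_UT_M_003, for example). The design text counts mice, with 3 in each WT group and in the KO UT group. It gives no number of mice for KO LD, and the sources do not say if libraries of both cell types share mice. The 4 groups of a cell type shared an estimate of the spread, so every p-value also rests on the KO LD libraries. It is therefore not known that the p-values measure the spread between animals alone. Tests between cell types treated all libraries as independent. In libraries labelled KO, Il6 had 16.2 to 220 normalized counts, against 0 to 7.20 in libraries labelled WT. This is the reverse of what a loss of Il6 transcript under the KO label would give. The source of these reads was not tested. Genotype is therefore written as a label, and every direction between KO and WT is a direction between labels.

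Primary (azurophil) granules are the first granules that a granulocyte precursor makes, at the promyelocyte stage, and their proteins are transcribed mainly there and in the granulocyte-monocyte progenitor before it, not in mature neutrophils. Myeloperoxidase and the neutrophil serine proteases are stored in them, and the proteases are made as inactive precursors that cathepsin C trims to the active form. The progenitors themselves are recognised by surface proteins such as CD34, and tumours and recovery from chemotherapy are both known to send immature myeloid cells to the spleen.

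The 4 best known genes of the set encode the main cargo of the primary granule. Mpo (chromosome 11, 87793784 to 87804412, GRCm38.p6 RefSeq) encodes myeloperoxidase, which makes hypochlorous acid. Elane (chromosome 10, 79886312 to 79888216) encodes neutrophil elastase and Prtn3 (chromosome 10, 79879667 to 79883174) encodes proteinase 3. Both lie on the plus strand, with 3072 bases between the end of Prtn3 and the start of Elane. Ctsg (chromosome 14, 56099885 to 56102574, minus strand) encodes cathepsin G, a related serine protease. The 250 bases before the annotated start of each are shown because these genes varied most closely together across the libraries. Sequences are from RefSeq (GRCm38.p6) and run 5′ to 3′ on the strand of the gene. Capitals mark AGGAAGT, a core that PU.1 and other ETS factors bind, CAACGG, bound by MYB, and ACCACA, the other strand of the RUNX core TGTGGT.
Mpo, chr11:87793534-87793783, plus strand: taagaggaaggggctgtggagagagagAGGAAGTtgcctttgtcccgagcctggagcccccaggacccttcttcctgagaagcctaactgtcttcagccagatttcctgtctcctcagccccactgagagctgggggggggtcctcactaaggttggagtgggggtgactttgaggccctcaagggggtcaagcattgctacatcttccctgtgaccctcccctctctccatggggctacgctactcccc
Elane, chr10:79886062-79886311, plus strand: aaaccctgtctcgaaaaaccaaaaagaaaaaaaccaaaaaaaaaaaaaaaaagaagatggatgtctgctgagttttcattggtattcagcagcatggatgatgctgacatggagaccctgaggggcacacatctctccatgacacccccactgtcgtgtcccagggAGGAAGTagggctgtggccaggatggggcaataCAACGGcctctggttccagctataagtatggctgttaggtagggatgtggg
Prtn3, chr10:79879417-79879666, plus strand: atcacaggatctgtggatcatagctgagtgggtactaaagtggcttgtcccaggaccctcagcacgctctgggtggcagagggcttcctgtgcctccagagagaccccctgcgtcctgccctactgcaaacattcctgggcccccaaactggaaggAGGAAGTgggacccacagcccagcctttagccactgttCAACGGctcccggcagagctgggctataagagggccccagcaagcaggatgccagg
Ctsg, chr14:56102575-56102824, minus strand: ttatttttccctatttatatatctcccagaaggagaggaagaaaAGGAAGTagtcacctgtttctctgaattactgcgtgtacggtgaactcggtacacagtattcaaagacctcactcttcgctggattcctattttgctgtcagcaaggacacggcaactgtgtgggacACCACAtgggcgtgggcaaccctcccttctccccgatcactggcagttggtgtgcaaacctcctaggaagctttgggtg

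AGGAAGT stood on the gene's own strand in all 4 windows, from base -223 to -217 before the start in Mpo, -84 to -78 in Elane, -94 to -88 in Prtn3 and -206 to -200 in Ctsg. In the neighbours Elane and Prtn3 it was followed by CAACGG at -51 to -46 and -56 to -51. Over all 9 genes, searched on both strands, AGGAAGT was present before a start of 7 of 9 genes (Mpo, Elane, Prtn3, Ctsg, Prom1 at its second start, Cst7 and Ctsc), against 7.69% of 32851 windows of the same length. CAACGG was present in 2 of 9 (4.05% of windows), TGTGGT in 3 of 9 (Ctsg, Prom1 and Cst7; 14% of windows) and the C/EBP core TTGCNNAA in 0 of 9 (9.56% of windows). The motifs do not overlap one another in these windows, and they were chosen after the sequences had been seen. A match is a run of letters and is not evidence that a factor bound there.

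The other 5 genes have broader roles. Ms4a3 (chromosome 19, 11629499 to 11640851) encodes a membrane protein of granulocyte-monocyte progenitors. Prom1 (chromosome 5, 43993621 to 44102047) encodes CD133 and Cd34 (chromosome 1, 194938821 to 194961292) the sialomucin CD34, both surface proteins of stem and progenitor cells. Cst7 (chromosome 2, 150570415 to 150578944) encodes cystatin F, an inhibitor of cathepsin C and related proteases that NK cells and cytotoxic T cells also make. Ctsc (chromosome 7, 88278024 to 88315861) encodes cathepsin C itself, which many leukocytes express. As whole genes, Cd34 overlaps the antisense gene Gm16897, also in the table, and Prtn3 overlaps Plppr3 on the opposite strand. Mpo overlaps Gm11505, Prom1 overlaps Gm16401 and Ctsc overlaps Gm26522, all on the opposite strand. Prom1 also overlaps Gm42716 on the same strand. Of these genes only Gm16897 is in the table under that name, and overlap of exons was not examined. Whether counting used strand is not given in the sources used here, so reads of such pairs cannot be told apart.

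Total reads per library were 7237462 to 11193088 in M-MDSCs and 3249647 to 9999731 in PMN-MDSCs, so a gene near the limit of detection is measured less well in the shallowest PMN-MDSC libraries. The 9 genes together held 0.0286 to 0.292% of reads in M-MDSCs and 0.00206 to 0.0362% in PMN-MDSCs. The sorted populations carried their own markers: 10 monocyte markers (Ly6c2, Ccr2 and others) summed to 44040 to 69348 normalized counts in M-MDSCs and 5119 to 13886 in PMN-MDSCs. The 8 neutrophil markers in the table (Csf3r, Cxcr2, S100a8 and others) summed to 3395 to 36856 in M-MDSCs and 119147 to 404427 in PMN-MDSCs, and 0 markers of either list were at 0 throughout a group. Ly6g, which defines PMN-MDSCs at the surface, is in the list and was not analysed here. Some libraries stood apart from their groups. KO_UT_M_003 had more reads of Mpo, Elane, Prtn3, Ctsg, Ms4a3, Prom1 and Cd34 than the other KO UT M-MDSC libraries. Among PMN-MDSCs, WT_LD_PMN_003 had the highest summed level of secondary and tertiary granule genes, 583193 against 130478 and 104191 in the other WT LD libraries, and KO_LD_PMN_002 had the highest cell cycle sum of KO LD, 25531 against 7056 and 6640.

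**Figure D1:**
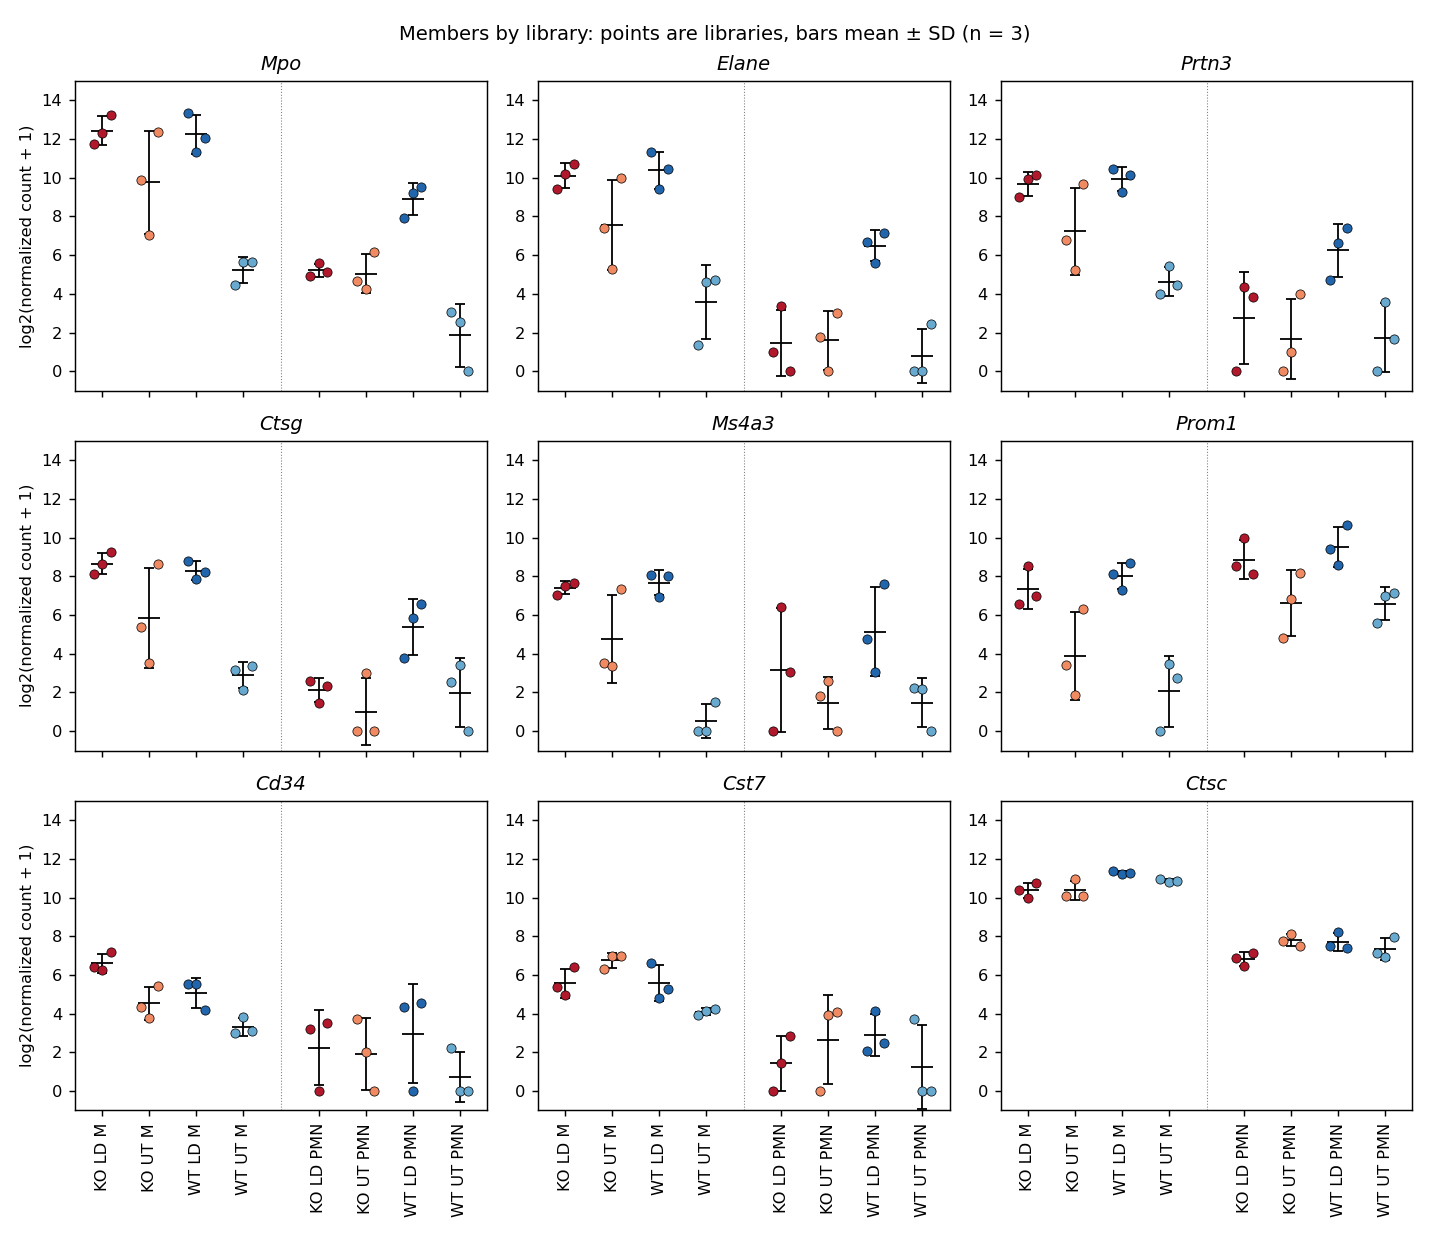
Log2(normalized count + 1) of each gene (vertical axis) in the 24 libraries (points), by group on the horizontal axis with M-MDSCs left of the dotted line and PMN-MDSCs right of it; black bars are mean ± SD, n = 3. Mpo is lowest in WT UT libraries of both cell types. Prom1 has the higher mean in PMN-MDSCs within each label and treatment, and the cell types overlap except in WT UT. The 3 KO UT M-MDSC libraries are spread widely for Mpo, Elane, Prtn3, Ctsg, Ms4a3 and Prom1, and less for Cd34, Cst7 and Ctsc.

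Mpo was the most abundant of the 9 per length of transcript in lymphodepleted M-MDSCs. On the scale of mean normalized counts per kilobase of exon, it reached 1760 in KO LD and 1682 in WT LD M-MDSCs. Elane followed with 1205 and 1566 in the same groups, then Prtn3 with 506 and 598. Ctsg had 413 and 316 and Ctsc 235 and 433, so Ctsg lay above Ctsc in KO LD and below it in WT LD M-MDSCs. In WT UT M-MDSCs the order was different: Ctsc had 324 per kilobase, and the other 8 genes lay between 0.334 (Ms4a3) and 17.1 (Elane). In PMN-MDSCs Prom1 led in KO LD cells with 76.7 per kilobase, against 19.8 for Ctsc, while Mpo led in WT LD cells with 153.

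The level of Mpo differed over a wide range between the groups. Ordered by mean normalized count, KO LD (6028 ± 3191, SD, n = 3), WT LD (5758 ± 4109) and KO UT M-MDSCs (2124 ± 2778) came first, and the libraries of each neighbouring pair overlapped. WT LD PMN-MDSCs were next (523 ± 251), followed by WT UT M-MDSCs (39.5 ± 15.9), KO UT PMN-MDSCs (38.0 ± 29.0) and KO LD PMN-MDSCs (37.1 ± 9.36). WT UT PMN-MDSCs were last (4.05 ± 3.73). Between neighbours in this order, only WT LD PMN-MDSCs against WT UT M-MDSCs and KO LD against WT UT PMN-MDSCs did not overlap.

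The first comparison asked what lymphodepletion did in WT-labelled M-MDSCs. Mpo had 10398, 2580 and 4296 normalized counts in WT LD M-MDSCs, against 21.2, 48.3 and 49.1 in WT UT M-MDSCs. Elane had 2551, 674 and 1398 in the LD libraries, against 1.57, 23.3 and 25.5 in the UT libraries. Prtn3 had 1386, 604 and 1119 in the LD libraries, against 14.9, 42.5 and 20.8 in the UT libraries. For all 3 genes every LD library lay far above every UT library.

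Cathepsin G and the progenitor genes were as clearly separated. Ctsg had 451, 232 and 297 normalized counts in WT LD M-MDSCs, against 7.85, 3.33 and 9.44 in WT UT M-MDSCs. Ms4a3 had 271, 121 and 254 in the LD libraries, against 0, 0 and 1.89 in the UT libraries. Prom1 had 276, 156 and 405 in the LD libraries, against 0, 9.99 and 5.66 in the UT libraries. In the UT libraries these 3 genes were near the limit of detection, with at most 10 reads of Ctsg, 2 of Ms4a3 and 12 of Prom1 in any of them.

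Smaller differences were seen in the remaining 3 genes. Cd34 had 46.0, 44.9 and 17.2 normalized counts in WT LD M-MDSCs, against 7.07, 13.3 and 7.55 in WT UT M-MDSCs. Cst7 had 97.6, 27.1 and 37.9 in the LD libraries, against 14.1, 16.7 and 17.9 in the UT libraries. Ctsc was high in both, with 2645, 2405 and 2495 in the LD libraries, against 1999, 1788 and 1866 in the UT libraries. The LD and UT libraries did not overlap for any of the 9 genes, where 38.8% of the 11570 genes tested did not overlap in this comparison.

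In limma, with Benjamini-Hochberg adjustment over all genes tested, 8 of 9 genes rose (all but Ctsc), against 18.3% of all genes called in either direction and 9.52% called higher. Changes are on the scale of log2(normalized count + 1), ± standard error. The change of Mpo was 7.00 ± 0.95 (adjusted p 0.000239), that of Elane 6.82 ± 1.01 (adjusted p 0.00043), that of Prtn3 5.31 ± 0.80 (adjusted p 0.000456) and that of Ctsg 5.42 ± 0.88 (adjusted p 0.00085). Prom1 rose by 5.96 ± 1.01 (adjusted p 0.00114). Ms4a3 was called (adjusted p 0.00014), and since WT UT M-MDSCs held 2 reads of it in all against 940 in WT LD M-MDSCs, its size is best given as a ratio of 390, with an exact 95% counting interval of 108 to 3228. Cd34 rose by 1.77 ± 0.49 (adjusted p 0.0229) and Cst7 by 1.47 ± 0.45 (adjusted p 0.0367). The calls of Cd34 and Cst7 were the less stable ones: Cd34 was called in 8 of 12 fits that left out 1 library (not without WT_LD_M_001, WT_LD_M_002, WT_UT_M_001 or WT_UT_M_003) and Cst7 in 7 of 12 (not without WT_LD_M_001, WT_LD_M_003 or any 1 WT UT library), while the other 6 were called in all 12. Ctsc differed by 0.42 ± 0.22 (adjusted p 0.201). The median change over the 9 genes was 5.42, against -0.07 over all genes tested. Fewer cells of a type and less RNA per cell cannot be told apart in these bulk libraries.

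Of 16 other primary granule genes listed, 13 were tested and 4 rose in WT LD M-MDSCs, with a median change of 0.11. Those with the smallest p were Cd63, a tetraspanin of the granule membrane (4.69 ± 0.63, adjusted p 0.000229, limma), Prss57, another serine protease of the granule (5.70 ± 0.94, adjusted p 0.000892) and Rab44 (1.63 ± 0.31, adjusted p 0.00235), with 1 more. Of 10 transcription factors of these genes that were tested, 4 rose, led by Cebpe (4.85 ± 0.64), Myb (3.76 ± 0.55) and Gfi1 (2.29 ± 0.41). Of 14 other stem and progenitor genes tested, 5 rose, among them the stem cell factor receptor Kit (2.89 ± 0.46) and Hlf (3.99 ± 0.67). Hlf was at 0 in every WT UT M-MDSC library, so the size of its change depends on the 1 added to each count. Myb and Gfi1 count under both lists. Serpinb1a, which inhibits elastase, proteinase 3 and cathepsin G, was the 1 of 7 inhibitors tested that rose (2.31 ± 0.41, adjusted p 0.00156, limma). Of 4 granzymes and related proteases that cathepsin C activates, 3 fell: Gzmb (-2.73 ± 0.35), Gzma (-2.53 ± 0.39) and Cma1 (-3.82 ± 0.66).

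Markers of other cell states moved with these genes in the same libraries. All 23 cell cycle genes rose in WT LD M-MDSCs, led by Nusap1 (5.21 ± 0.52), Tpx2 (5.36 ± 0.58) and Plk1 (4.69 ± 0.52), and their summed level was 24276 to 39757 normalized counts in WT LD and 1839 to 2137 in WT UT M-MDSCs. Of 15 secondary and tertiary granule genes, which later precursors make, 7 rose, led by Camp (4.98 ± 0.63), Ngp (5.01 ± 0.63) and Ltf (4.73 ± 0.62). Neutrophil markers, which include Camp and Ltf, rose in 5 of 8, with a summed level of 9285 to 36856 in WT LD and 3599 to 3793 in WT UT M-MDSCs and 0 of the 8 markers at 0 in either group. Eosinophil markers rose in 3 of 4 tested, with a summed level of 75.8 to 94.8 in WT LD and 5.5 to 15 in WT UT M-MDSCs. NK cell markers fell in 9 of 10, B cell markers in 7 of 8, T cell markers in 3 of 9 and monocyte markers in 3 of 10. The part of these cells in the change of the 9 genes was not tested.

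The same comparison was made in KO-labelled M-MDSCs, where 2 of 9 genes rose, Prom1 and Cd34, against 11.6% of all genes called in either direction and 6.11% called higher. Mpo had 3471, 5009 and 9604 normalized counts in KO LD M-MDSCs, against 946, 129 and 5297 in KO UT M-MDSCs. Elane had 685, 1175 and 1696 in the LD libraries, against 169, 38.3 and 1003 in the UT libraries. For both genes KO_UT_M_003 lay within the range of the LD libraries and the other 2 UT libraries lay below it.

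The same library was the highest of its group for the other granule genes. Prtn3 had 510.1, 986 and 1134 normalized counts in KO LD M-MDSCs, against 111, 36.3 and 811 in KO UT M-MDSCs. Ctsg had 277, 393 and 608 in the LD libraries, against 40.5, 10.6 and 404 in the UT libraries. Ms4a3 had 132, 181 and 204 in the LD libraries, against 10.5, 9.25 and 165 in the UT libraries. Within KO UT M-MDSCs the 3 libraries kept one order for Mpo, Elane, Prtn3, Ctsg and Ms4a3, with KO_UT_M_003 highest and KO_UT_M_002 lowest.

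The 2 genes called were those whose LD and UT libraries did not overlap, where 27.3% of all genes tested did not overlap in this comparison. Prom1 had 94.0, 368 and 124 normalized counts in KO LD M-MDSCs, against 9.80, 2.64 and 79.5 in KO UT M-MDSCs, a change of 3.48 ± 1.01 (adjusted p 0.0393, limma). Cd34 had 84.5, 74.5 and 142 in the LD libraries, against 19.6, 12.5 and 42.8 in the UT libraries, a change of 2.08 ± 0.49 (adjusted p 0.0142, limma). Cst7 had 39.9, 30.0 and 83.3 in the LD libraries, against 78.4, 127 and 124 in the UT libraries, and Ctsc had 1336, 1018 and 1736 in the LD libraries, against 1067, 1962 and 1098 in the UT libraries. Both overlapped.

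Mpo, Elane, Prtn3, Ctsg and Ms4a3 were not called in KO-labelled M-MDSCs, with changes between 2.47 and 2.81 and adjusted p-values between 0.0524 and 0.124 (limma). Without KO_UT_M_003, all 5 were called as well as Prom1 and Cd34, in all 7 genes higher. Without KO_UT_M_001 or KO_UT_M_002, 0 of 9 genes were called (at an unadjusted p under 0.05 with all libraries, 8 of 9 were below it, and edgeR and DESeq2 each called 1). Without KO_LD_M_002 or WT_UT_M_003 only 1 gene was called, higher, and without KO_LD_M_003 the 1 gene called was Cst7, lower. In the same group the summed level of the 23 cell cycle genes was 4489, 2237 and 13242 in KO UT M-MDSCs, again highest in KO_UT_M_003, and its part in the result was not tested. Over the comparison, 22 of 23 cell cycle genes, 6 of 15 secondary and tertiary granule genes and 4 of 8 neutrophil markers rose in KO LD M-MDSCs, while NK cell markers fell in 10 of 10, B cell markers in 8 of 8 and T cell markers in 7 of 9. The NK marker sum was 635 to 1672 in KO LD and 7689 to 10934 in KO UT M-MDSCs, and its part in the values of Cst7 was not tested. The neutrophil markers of KO_UT_M_003, 3915, lay close to 3452 and 3395 in the other KO UT libraries.

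**Figure D2:**
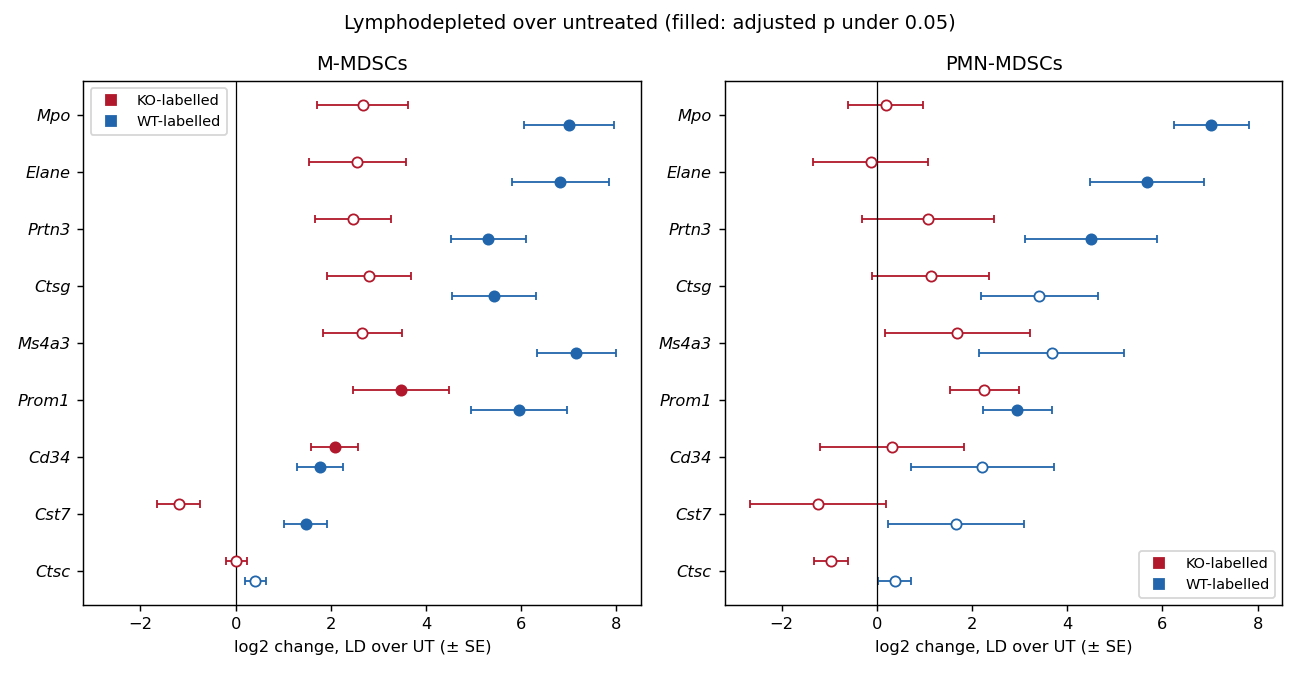
Change of each gene in lymphodepleted over untreated cells (horizontal axis, log2(normalized count + 1) units, ± standard error from limma) in M-MDSCs and PMN-MDSCs; filled points had an adjusted p under 0.05. In WT-labelled M-MDSCs 8 of 9 points are filled, in KO-labelled M-MDSCs 2, in WT-labelled PMN-MDSCs 4 and in KO-labelled PMN-MDSCs 0; the fitted points of Ms4a3 in WT M-MDSCs and of Elane and Cd34 in WT PMN-MDSCs rest on 2 or 3 reads in the untreated group.

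The test of the difference between the 2 responses called 0 of 9 genes in M-MDSCs by limma, against 0.00864% of all genes. At an unadjusted p under 0.05, 5 of 9 were below it, edgeR called 0 and DESeq2 called 3, all lower in KO. For Mpo the difference of the responses was -4.33 ± 1.34 (adjusted p 0.328, limma), and -3.03 without KO_UT_M_003 (adjusted p 0.318), when limma again called 0 of 9. The responses of the 2 labels are therefore not shown to differ, and the p does not show that they act alike.

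The effect of lymphodepletion was then compared in WT-labelled PMN-MDSCs. Mpo had 244, 594 and 731 normalized counts in WT LD PMN-MDSCs, against 7.34, 4.80 and 0 in WT UT PMN-MDSCs. Elane had 103, 47.3 and 141 in the LD libraries, against 0, 0 and 4.35 in the UT libraries. Prtn3 had 25.7, 96.5 and 167 in the LD libraries, against 0, 10.8 and 2.18 in the UT libraries. The groups did not overlap for these genes, nor for Ctsg, Ms4a3 and Prom1, which makes 6 of 9 where 32.9% of the 12971 genes tested did not overlap. Elane and Ctsg passed the filter on low values in PMN-MDSCs only through the WT LD libraries, where they were high. Ms4a3 passed it with 3 libraries, all of them WT LD or KO LD. The counts of genes in PMN-MDSCs are therefore descriptions. Of the 7 genes other than Elane and Ctsg, 4 did not overlap, Ms4a3 among them.

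In WT LD PMN-MDSCs 4 of 9 genes rose (Mpo, Elane, Prtn3 and Prom1), against 10.9% of all genes called in either direction and 4.14% called higher. Elane entered this test only through the WT LD libraries, where it was high, so the count of 4 is a description. Of the genes other than Elane and Ctsg, those called were Mpo, Prtn3 and Prom1. The change of Mpo was 7.02 ± 0.78 (adjusted p 0.00172, limma) and that of Prtn3 4.50 ± 1.38 (adjusted p 0.0476, limma). Elane was called (adjusted p 0.0134, limma) on 237 reads in the LD group and 2 in the UT group, a ratio of 101 with an exact 95% counting interval of 27.6 to 838. Prom1 had 674, 379 and 1591 normalized counts in the LD libraries, against 47.7, 127 and 141 in the UT libraries, and rose by 2.95 ± 0.72 (adjusted p 0.0236, limma).

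Ctsg and Ms4a3 were separated but not called. Ctsg had 12.8, 55.6 and 95.5 normalized counts in WT LD PMN-MDSCs, against 4.89, 9.60 and 0 in WT UT PMN-MDSCs, a difference of 3.41 ± 1.22 (adjusted p 0.0788, limma). Ms4a3 had 25.7, 7.42 and 197 in the LD libraries, against 3.67, 3.60 and 0 in the UT libraries, a difference of 3.67 ± 1.52 (adjusted p 0.122, limma). Cd34 had 19.3, 0 and 22.0 in the LD libraries, against 3.67, 0 and 0 in the UT libraries, or 30 reads against 3, a ratio of 8.51 with a counting interval of 2.65 to 43.6. Cst7 had 3.21, 16.7 and 4.59 in the LD libraries, against 12.2, 0 and 0 in the UT libraries, and Ctsc had 179.8, 299.6 and 164 in the LD libraries, against 138, 119 and 248 in the UT libraries, so for these 3 genes the groups overlapped.

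The calls in WT-labelled PMN-MDSCs rested on few libraries. The count was 1 without WT_LD_PMN_003, WT_UT_PMN_001 or WT_UT_PMN_002 and 2 without WT_LD_PMN_002 or WT_UT_PMN_003, and Mpo was called in all 12 fits that left out 1 library. Prtn3 was called in 5 of these 12 fits, Prom1 in 8 and Elane in 7 of the 9 that tested it. With all libraries kept, Prtn3 was not called by edgeR. When a WT LD library was left out, Elane and Ctsg did not pass the filter and were not tested. The lower counts without WT_LD_PMN_002 or WT_LD_PMN_003 thus include the absence of Elane from the test. Without the 3 shallowest PMN-MDSC libraries together, a setting added after the depths had been seen, Mpo and Prom1 were called and Elane was not tested. In the same comparison 18 of 23 cell cycle genes rose, led by Cenpe (3.41 ± 0.46), Rrm2 (4.15 ± 0.64) and Ccnb2 (3.39 ± 0.54), with a summed level of 13906 to 41724 normalized counts in WT LD and 2645 to 3009 in WT UT PMN-MDSCs. Of 15 secondary and tertiary granule genes 12 rose, led by Mmp8 (1.53 ± 0.26), Itgb2l (3.04 ± 0.59) and Cd177 (2.71 ± 0.55), and 8 of 12 mature neutrophil genes fell, among them Ccl6 (-1.91 ± 0.34) and Trem1 (-1.35 ± 0.28). Of 11 transcription factors tested, Myb (2.36 ± 0.36), Gfi1 (1.97 ± 0.53) and Cebpe (2.93 ± 0.88) rose. The part of these other changes in the values of the 9 genes was not tested.

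In KO-labelled PMN-MDSCs lymphodepletion changed 0 of 9 genes by limma, against 0.224% of all genes called. At an unadjusted level, 2 of 9 were under an unadjusted p of 0.05, and edgeR and DESeq2 each called 0. Mpo had 29.6, 47.5 and 34.1 normalized counts in KO LD PMN-MDSCs, against 24.7, 18.1 and 71.3 in KO UT PMN-MDSCs. Prom1 had 366, 1012 and 274 in the LD libraries, against 27.2, 111 and 293 in the UT libraries, where the highest UT library lay above the lowest LD library. Ctsc had 117, 86.6 and 140.4 in the LD libraries, against 213, 276 and 181 in the UT libraries, the 1 gene of the 9 without overlap (15.8% of all genes), with a difference of -0.96 ± 0.35 (adjusted p 0.345, limma). Elane, Prtn3, Ctsg, Cd34 and Cst7 were between 0 and 19.5 in every KO-labelled PMN-MDSC library. Ms4a3 was 0, 84.1 and 7.22 in the LD libraries, against 2.47, 5.04 and 0 in the UT libraries, so 1 library held most of its reads.

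The question behind the 2 strains was how IL-6 bears on these cells, which was addressed by comparing the labels within each treatment. In untreated M-MDSCs 4 of 9 genes were higher in KO-labelled cells (Mpo, Elane, Ms4a3 and Cst7), against 4.03% of all genes called in either direction and 2.24% called higher. Over all genes 259 were higher and 207 lower, or 299 and 94 when scaled to total counts, which put the median of all genes at 0.13. The change of Mpo was 4.51 ± 0.95 (adjusted p 0.025, limma), on values of 946, 129 and 5297 in KO UT against 21.2, 48.3 and 49.1 in WT UT M-MDSCs. That of Elane was 4.0 ± 1.01 (adjusted p 0.0441, limma). Ms4a3 was called (adjusted p 0.0194, limma) on 272 reads in KO UT and 2 in WT UT M-MDSCs, a ratio of 106 with a counting interval of 29.2 to 884. KO and WT libraries did not overlap for these 3 genes, for Ctsg (2.98 ± 0.88, adjusted p 0.0748, limma) or for Cst7, in all 5 of 9, where 33.9% of all genes did not overlap.

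Cst7 had its highest level of any group here. It had 78.4, 127 and 124 normalized counts in KO UT M-MDSCs, against 14.1, 16.7 and 17.9 in WT UT M-MDSCs, and rose by 2.66 ± 0.45 (adjusted p 0.00924, limma). Unlike Mpo, it was not highest in KO_UT_M_003, and it was called in all 12 fits that left out 1 library. NK cell markers moved with it: 10 of 10 were higher in KO UT M-MDSCs, with a summed level of 7689 to 10934 in KO UT and 1967 to 2277 in WT UT M-MDSCs and 0 of 10 at 0 in either group. Among the proteases that cathepsin C activates, which the NK marker list shares in part, Gzmb (2.07 ± 0.35) and Gzma (2.12 ± 0.39) rose. T cell markers rose in 6 of 9. The part of NK or T cells in the level of Cst7 was not tested.

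For the other 3 genes called, the count depended on the libraries. Without KO_UT_M_001, KO_UT_M_003 or WT_UT_M_003 it was 2 of 9, without WT_UT_M_001 or WT_UT_M_002 it was 1, and without KO_UT_M_002, the library with the lowest granule genes of its group, it was 7, of which 6 were higher and Ctsc was lower. Mpo was called in 7 of 12 such fits, Elane in 6 and Ms4a3 in 10. The change of Mpo lay between 3.21 and 5.88 in these fits. Among the fixed lists, 4 of 23 cell cycle genes rose, led by Nusap1 (2.45 ± 0.52), Tyms (2.03 ± 0.49) and Mcm5 (1.43 ± 0.35), as did the progenitor genes Kit (1.92 ± 0.46), Irf8 (0.61 ± 0.15) and Gfi1 (1.56 ± 0.41) of 14 tested. The 1 other primary granule gene that rose, of 13 tested, was Ctsd, cathepsin D (0.91 ± 0.16), and 0 of 15 secondary and tertiary granule genes were called (limma).

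In lymphodepleted M-MDSCs 0 of 9 genes were called by limma, against 0.207% of all genes, with 2 of 9 under an unadjusted p of 0.05, 0 called by edgeR and 1 (Ctsc) by DESeq2. Cd34 was above without overlap, with 84.5, 74.5 and 142 normalized counts in KO LD against 46.0, 44.9 and 17.2 in WT LD M-MDSCs (1.52 ± 0.49, adjusted p 0.30, limma). Ctsc was below without overlap, with 1336, 1018 and 1736 in KO LD against 2645, 2405 and 2495 in WT LD M-MDSCs (-0.92 ± 0.22, adjusted p 0.10, limma). These are 2 of 9 genes, where 11.3% of all genes did not overlap. The other 7 overlapped, with Mpo at 6028 ± 3191 in KO LD and 5758 ± 4109 in WT LD M-MDSCs (SD, n = 3 each).

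**Figure D3:**
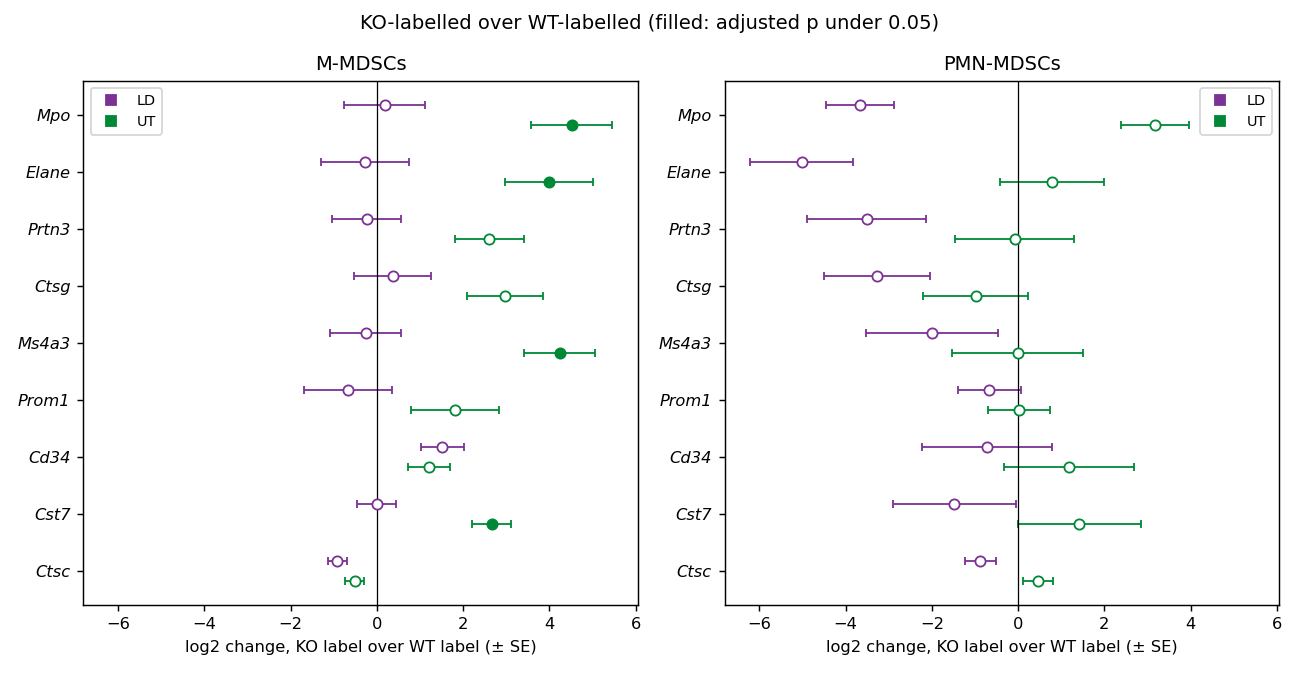
Change of each gene in KO-labelled over WT-labelled cells (horizontal axis, log2(normalized count + 1) units, ± standard error from limma) under lymphodepletion (LD) and without it (UT), in M-MDSCs and PMN-MDSCs; filled points had an adjusted p under 0.05. The filled points are the 4 genes of untreated M-MDSCs, and in lymphodepleted PMN-MDSCs all 9 points lie below 0 without being called. Of these, Elane and Ctsg passed the filter in PMN-MDSCs only through the WT LD libraries, the group compared against.

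In lymphodepleted PMN-MDSCs limma called 0 of 9 genes between the labels, against 0.0154% of all genes; 5 of 9 were under an unadjusted p of 0.05, edgeR called Mpo, and DESeq2 called Mpo and Elane, all lower in KO-labelled cells. Mpo had 29.6, 47.5 and 34.1 normalized counts in KO LD PMN-MDSCs, against 244, 594 and 731 in WT LD PMN-MDSCs (-3.67 ± 0.78, adjusted p 0.353, limma). Elane had 1.02, 9.34 and 0 in KO LD, against 103, 47.3 and 141 in WT LD PMN-MDSCs (-5.02 ± 1.2, adjusted p 0.353, limma). Prtn3 had 0, 19.5 and 13.4 in KO LD, against 25.7, 96.5 and 167 in WT LD PMN-MDSCs. With Ctsg and Ctsc, 5 of 9 genes lay below without overlap, where 10.2% of the 12971 genes tested did not overlap in either direction. Elane and Ctsg are among these 5 and entered the test only through the WT LD libraries, and of the other 7 genes 3 (Mpo, Prtn3 and Ctsc) did not overlap.

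In untreated PMN-MDSCs limma also called 0 of 9, against 0.00771% of all genes, with 1 of 9 under an unadjusted p of 0.05, 0 called by edgeR and 1 by DESeq2. That gene was Mpo, with 24.7, 18.1 and 71.3 normalized counts in KO UT against 7.34, 4.80 and 0 in WT UT PMN-MDSCs, which did not overlap (3.17 ± 0.78, adjusted p 0.933, limma; 13.1% of all genes did not overlap). The difference between the lymphodepletion responses of the labels called 0 of 9 genes in PMN-MDSCs by limma (0% of all genes), with 3 of 9 under an unadjusted p of 0.05 and 1 called by edgeR and by DESeq2.

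Between the cell types, every one of the 9 but Prom1 was higher in M-MDSCs wherever it was called. In KO LD cells 8 of 9 rose in M-MDSCs over PMN-MDSCs (all but Prom1), against 47.4% of all genes called in either direction and 23.8% called higher. In KO UT cells 7 of 9 were higher and Prom1 was lower, against 43.8% called, 20.3% higher and 23.6% lower. In WT LD cells 6 of 9 were higher (Mpo, Elane, Prtn3, Ctsg, Cst7 and Ctsc), against 39.3% called and 19.4% called higher. In WT UT cells 5 of 9 were higher (Mpo, Elane, Prtn3, Cst7 and Ctsc) and Prom1 was lower, against 50.5% called, 22.2% higher and 28.3% lower. With so many genes called between the cell types, a call of one of these genes is not unusual. Scaling to total counts put the median of all genes at 0.46 to 0.66 in these comparisons, against -0.08 to 0.07 with the deposited scaling. It gave 4551 genes higher and 2145 lower in KO LD cells (3207 and 3174 with the deposited scaling), 5289 and 1836 in KO UT (2728 and 3172), 4522 and 1559 in WT LD (2617 and 2678) and 5332 and 2214 in WT UT cells (2994 and 3807). The called and separated genes of the set kept their directions under it.

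The largest of these differences was that of Elane in KO LD cells, with 685, 1175 and 1696 normalized counts in M-MDSCs and 1.02, 9.34 and 0 in PMN-MDSCs (8.66 ± 1.08, adjusted p 7.57e-07, limma). Mpo differed by 7.21 ± 0.91 in KO LD cells, by 4.72 ± 0.91 in KO UT, by 3.36 ± 0.91 in WT LD and by 3.38 ± 0.91 in WT UT cells (adjusted p 8.16e-07, 0.000203, 0.00495 and 0.00366, limma). In WT UT cells that difference was between 21.2, 48.3 and 49.1 in M-MDSCs and 7.34, 4.80 and 0 in PMN-MDSCs. Elane in WT UT cells was called on 57 reads in M-MDSCs and 2 in PMN-MDSCs, a ratio of 17.0 with a counting interval of 4.50 to 144. Its libraries overlapped between the cell types there, and it was called in 20 of 24 fits that left out 1 library. Elane was not called there with a pseudocount of 5, no filter or edgeR, and Mpo was not called there with edgeR. Ms4a3 was called in KO LD (4.26 ± 1.29, adjusted p 0.00916, and not without KO_LD_PMN_001) and KO UT cells (3.29 ± 1.29, adjusted p 0.0426, limma). Without KO_UT_M_003 the KO UT difference of Ms4a3 was 1.97 (adjusted p 0.257), and it was not called without KO_UT_PMN_001 or KO_UT_PMN_003 either; Mpo, Elane, Prtn3, Ctsg, Prom1, Cst7 and Ctsc kept their calls in KO UT cells without KO_UT_M_003, with Mpo at 3.41. In addition, Cd34 was called in KO LD cells (4.38 ± 1.11, adjusted p 0.00236, limma).

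Ctsc gave the most even difference of the set. It ranged from 1018 to 2645 normalized counts in the 12 M-MDSC libraries and from 86.6 to 299.6 in the 12 PMN-MDSC libraries. M-MDSCs were higher by 3.55 ± 0.28 in KO LD, 2.58 ± 0.28 in KO UT, 3.60 ± 0.28 in WT LD and 3.55 ± 0.28 in WT UT cells, and the call held in all 24 fits that left out 1 library in each of the 4 comparisons. Its inhibitor Cst7 was called higher in M-MDSCs by limma in all 4 comparisons, by 2.67 to 4.14. In WT UT cells Cst7 was not called by edgeR or DESeq2, and it was called in 20 of 24 fits that left out 1 library there and in 16 of 24 in WT LD cells. NK cell markers were also higher in M-MDSCs, 2 of 10 in KO LD, 10 of 10 in KO UT, 5 of 10 in WT LD and 8 of 10 in WT UT cells, and their part in the difference of Cst7 was not tested.

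Prom1 went the other way. It had 9.80, 2.64 and 79.5 normalized counts in KO UT M-MDSCs and 27.2, 111 and 293 in KO UT PMN-MDSCs, a change of -2.73 ± 0.98 in M-MDSCs over PMN-MDSCs (adjusted p 0.0271, limma). In WT UT cells M-MDSCs had 0, 9.99 and 5.66 and PMN-MDSCs 47.7, 127 and 141 (-4.52 ± 0.98, adjusted p 0.00056, limma). The KO UT libraries of the cell types overlapped for Prom1, and it was not called there with edgeR, DESeq2 or total count scaling. That call held in 20 of 24 fits that left out 1 library. It was lost without KO_UT_M_001, KO_UT_M_002, KO_UT_PMN_002 or KO_UT_PMN_003. In LD cells the cell types also overlapped for Prom1, in KO and in WT libraries, and it was not called. The difference between the cell types in the lymphodepletion response called 0 of 9 genes by limma in KO (0.0966% of all genes) and in WT libraries (0.788%), with 1 of 9 under an unadjusted p of 0.05 in each and 0 called by edgeR or DESeq2.

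**Figure D4:**
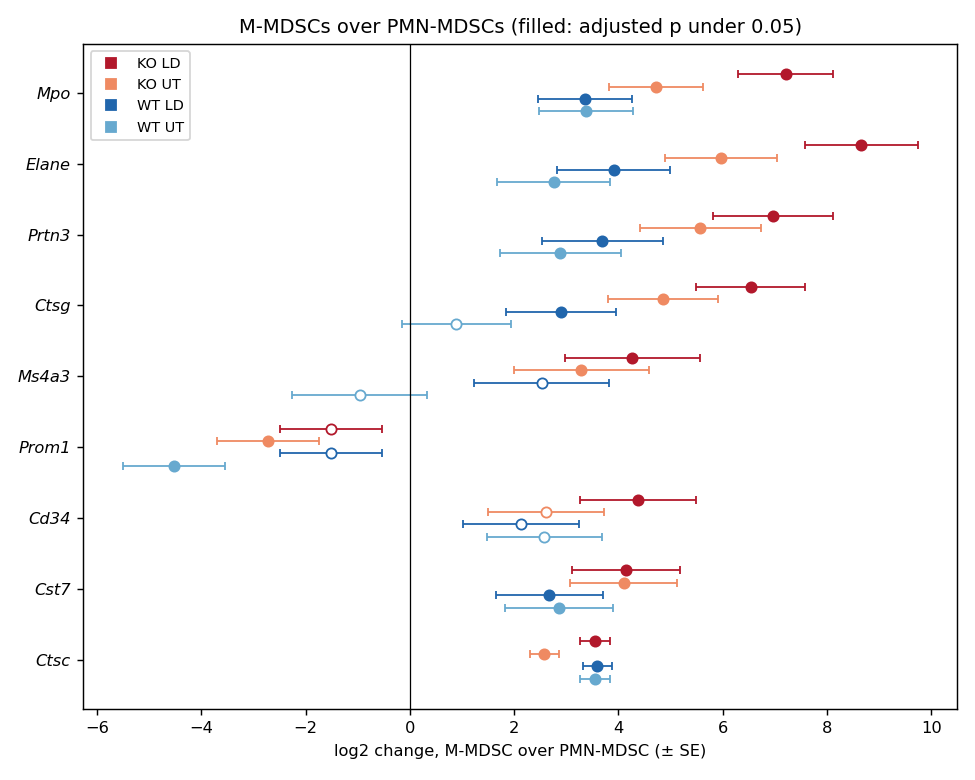
Change of each gene in M-MDSCs over PMN-MDSCs (horizontal axis, log2(normalized count + 1) units, ± standard error from limma) in the 4 combinations of genotype label and treatment; filled points had an adjusted p under 0.05. Prom1 alone has called points below 0 (KO UT and WT UT), and Ctsc lies between 2.58 and 3.60 in all 4.

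The counts of the granule genes stood in steady ratios to one another in M-MDSCs. Elane had 0.177 to 0.235 reads per read of Mpo in KO LD, 0.179 to 0.297 in KO UT and 0.245 to 0.325 in WT LD M-MDSCs, although Mpo itself ranged from 129 to 10398 normalized counts over these 9 libraries. Prtn3 had 0.118 to 0.197, 0.117 to 0.282 and 0.133 to 0.260 reads per read of Mpo in the same 3 groups. Ctsg had 0.0633 to 0.0799, 0.0428 to 0.0821 and 0.0434 to 0.0900. In WT UT M-MDSCs, with 27 to 58 reads of Mpo, the ratios were 0.0741 to 0.519 for Elane and 0.423 to 0.879 for Prtn3.

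Prom1 did not keep such a ratio across cell types. It had 0.0104 to 0.0943 reads per read of Mpo in the KO LD, KO UT and WT LD M-MDSC libraries. In PMN-MDSCs it had 8.03 to 21.3 in KO LD, 1.10 to 6.11 in KO UT, 0.639 to 2.76 in WT LD and 6.5 to 26.5 in the 2 WT UT libraries with reads of Mpo. The ranges of the 2 cell types did not overlap in any of the 4 combinations of label and treatment.

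**Figure D5:**
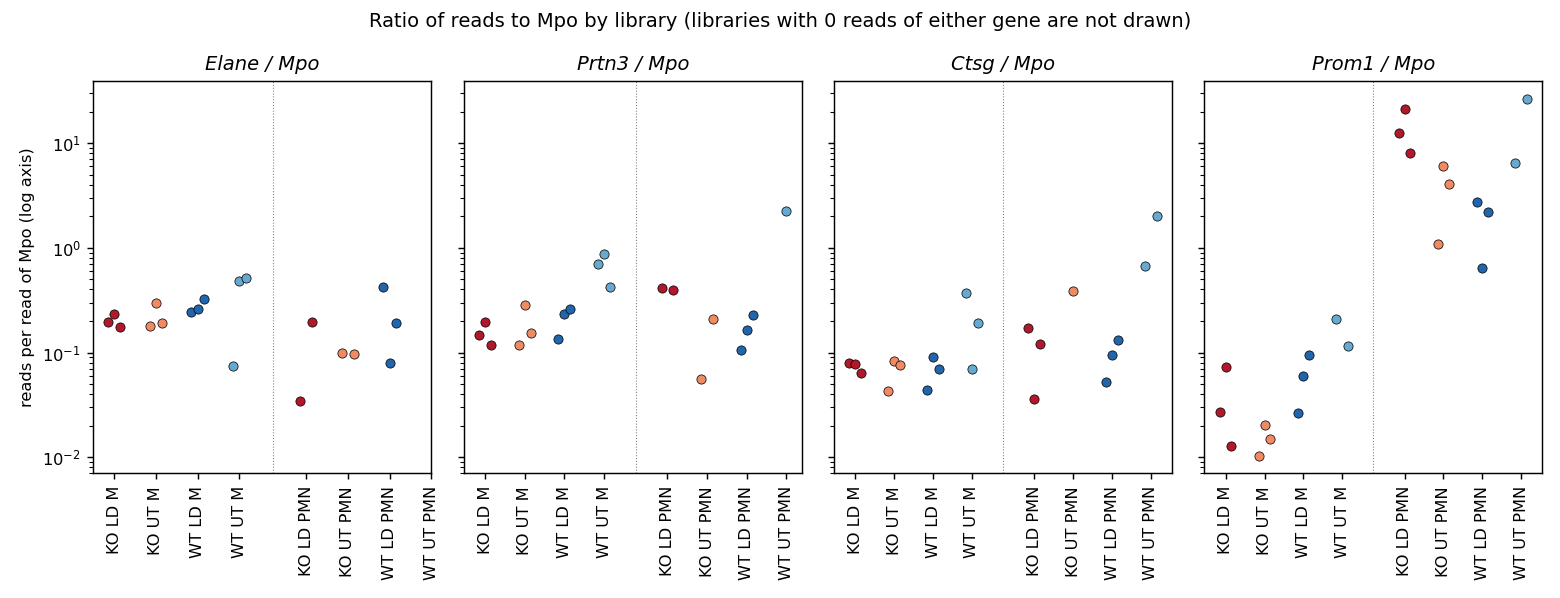
Reads of Elane, Prtn3, Ctsg and Prom1 per read of Mpo (vertical log axis) in each library (points) by group, M-MDSCs left of the dotted line and PMN-MDSCs right of it; libraries with 0 reads of either gene are not drawn. Elane stays between 0.177 and 0.325 in KO LD, KO UT and WT LD M-MDSCs, and Prom1 is at or below 0.207 in every M-MDSC library and at 0.639 or more in the PMN-MDSC libraries drawn.

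Across libraries the 9 genes fell into a tight core and a looser rest. Over the 12 M-MDSC libraries, on the scale of log2(normalized count + 1), the correlation with Mpo (Pearson r) was 0.982 for Elane, 0.980 for Prtn3, 0.975 for Ctsg and 0.972 for Ms4a3. It was 0.910 for Prom1, 0.858 for Cd34, 0.561 for Cst7 and -0.142 for Ctsc. Over the 12 PMN-MDSC libraries, where counts were low, r with Mpo was 0.753 for Elane, 0.720 for Prtn3, 0.662 for Ctsg, 0.642 for Prom1 and 0.606 for Ms4a3. These libraries fall into groups and share treatment and depth, so the values describe the libraries and carry no test.

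The genes outside the set with the most similar pattern were sought over all 24 libraries, among 13457 tested. For Mpo they were Tubb5 (r = 0.919), Csrp1 (0.916) and the replicative helicase subunit Mcm3 (0.915), for Elane Mcm3 (0.919), Anp32e (0.914) and Timeless (0.912), and for Prtn3 Nucks1 (0.934), Mcm3 (0.932) and Nup85 (0.932). For Ctsg they were Mcm6 (0.943), Mcm3 (0.935) and Mcm2 (0.912), and for Ms4a3 Hist1h4h (0.912), Lig1 (0.908) and Cdc7 (0.906). Prom1 was most like Cebpe (0.959), a transcription factor of the step from promyelocyte to myelocyte, Camp (0.959), the cathelicidin of secondary granules, and Rtkn2 (0.958). Cd34 was most like Polr2g (0.835), Mamdc4 (0.829) and Nrg2 (0.824), Cst7 like Idh3a (0.907), Rpl35 (0.905) and Slc7a1 (0.904), and Ctsc like Tmsb10 (0.979), Tars (0.978) and Sdad1 (0.977). For every gene of the set, and not only for Cst7 and Ctsc, the likeness over 24 libraries includes the difference between the cell types.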

How the data were processed

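Total RNA of sorted splenic MDSCs, 100 ng a library, was made into rRNA-depleted NuGen Ovation libraries, per the labels' protocols. Per the submitters' processing notes, reads were handled with STAR 2.5.3a, HTSeq 0.6.1 and DESeq2 on build mm10; the sources used here do not give the strand setting, annotation or filters. The deposited signal values are read counts per gene divided by 1 size factor per library, and whole reads were recovered from them for every value above 0, within 0.001. The main test was limma 3.58.1 (R 4.3.3) with a mean-variance trend on log2(normalized count + 1), over genes with at least 10 normalized counts in at least 3 fitted libraries, with two-sided p-values adjusted by Benjamini-Hochberg over all genes tested and called under 0.05. M-MDSC and PMN-MDSC libraries were fitted separately (12 each), and cell types were compared in all 24. All 9 genes passed the filter in the fits that kept all libraries. With 1 library left out, Elane, Ctsg and Ms4a3 were each tested in 9 of 12 fits of PMN-MDSCs. They were not tested in PMN-MDSCs without the shallowest 3 libraries. edgeR 4.0.16 and DESeq2 1.42.0 on the recovered reads, other pseudocounts, filters and scalings, a replicate block and leaving out libraries were alternatives, and the procedure was tested on simulated data. Named genes are the 9, up to 3 most correlated genes of each, and the called genes of fixed lists with the smallest p. The genes and lists were chosen with earlier results of these data known. Counting intervals cover counting error only. No 2 libraries were identical.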

Additional observations from a re-analysis of the deposited data

Results flagged for a closer look

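Mpo in PMN-MDSCs differed between the labels in opposite directions in lymphodepleted and untreated cells. All 3 KO LD libraries (29.6 to 47.5 normalized counts) lay below all 3 WT LD libraries (244 to 731), and all 3 KO UT libraries (18.1 to 71.3) lay above all 3 WT UT libraries (0 to 7.34). The test of the difference itself gave -6.84 ± 1.11 with an adjusted p of 0.182 in limma, so it did not pass the threshold. The adjusted p was 0.0607 to 0.822 when 1 library was left out, and Mpo was called with a pseudocount of 5, quantile normalization, edgeR, DESeq2 or all 24 libraries in 1 fit.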

How the results depend on the processing

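Of 1677 alternative values of single genes, 1510 kept their direction and their side of the threshold, 127 lost the call, 40 gained one and 0 turned. The cause of the changes in counts below was not tested. Counts that changed from or to 0, or by a larger factor, are listed, and smaller changes are not all given. The number of the 9 genes called for lymphodepletion in KO-labelled M-MDSCs (2) was 1 with a pseudocount of 0.5, no filter, total count scaling, edgeR, DESeq2 or all 24 libraries in 1 fit, and 4 with a pseudocount of 5 or the replicate block. The replicate block moved no other count this far. Same-numbered libraries correlated over 0.1 in 4 of 12 pairs between cell types, 1 of 18 within M-MDSCs and 4 of 18 within PMN-MDSCs. The sources do not say that a number marks a shared animal, so the numbers were not taken to pair the libraries. For KO against WT the count was 1 with all 24 libraries in 1 fit in UT M-MDSCs (4 in the main analysis), 1 with DESeq2 in LD M-MDSCs (0) and 1 with DESeq2 in UT PMN-MDSCs (0). In LD PMN-MDSCs (0) it was 1 with a pseudocount of 5, edgeR or all 24 libraries, and 2 with DESeq2. The difference of the responses gave 3 with DESeq2 in M-MDSCs (0), and in PMN-MDSCs (0) 1 with a pseudocount of 5, quantile normalization, edgeR, DESeq2 or all 24 libraries. Between cell types the count was 2 with edgeR in WT UT cells (6). Among smaller changes, edgeR and DESeq2 each gave 6 for KO against WT in UT M-MDSCs (4). For lymphodepletion in WT PMN-MDSCs (4), edgeR gave 3 and DESeq2 gave 6. Between cell types DESeq2 gave 4 in WT UT cells (6), and edgeR and DESeq2 each gave 7 in KO LD and in KO UT cells (8). Without the shallowest 3 PMN-MDSC libraries, chosen after seeing the data, it was 3 for cell types in WT LD cells (6) and 2 for lymphodepletion in WT PMN-MDSCs (4). Elane, called in the main analysis, did not pass the filter in that lymphodepletion fit. The share of reads held by the 9 genes in WT UT M-MDSCs was 0.0343% without Rn45s and Malat1, against 0.0294%.

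With 1 library left out, counts ranged from 6 to 8 for lymphodepletion in WT M-MDSCs, 0 to 7 in KO M-MDSCs, 1 to 4 in WT PMN-MDSCs and 0 to 0 in KO PMN-MDSCs. They ranged from 1 to 7 for KO against WT in UT M-MDSCs and 0 to 1 in LD M-MDSCs, where Ctsc was called without KO_UT_M_002. For cell types they ranged from 7 to 8 in KO LD, 6 to 9 in KO UT, 3 to 6 in WT LD (3 without WT_LD_M_001 or WT_LD_PMN_001) and 3 to 7 in WT UT cells (3 without WT_UT_M_002 or WT_UT_M_003). Few reads limit the values of Elane, Ctsg, Ms4a3, Cd34 and Cst7 in PMN-MDSCs. Elane, Ctsg and Ms4a3 were not tested in all fits of PMN-MDSCs that left out 1 library.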
